A study of Mus musculus with 4 samples.

Results

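The Clec family comprises the genes whose symbol joins Clec with a digit, and it was followed here through the CD45high cells of the mouse brain after experimental stroke. The rule for members uses the symbol alone: 30 of the 31053 genes in the count tables carry such a symbol, and Clec7a and Clec2f were not analysed here. The cells came from the ischemic hemisphere of C57/BL6 mice after transient occlusion of the middle cerebral artery (tMCAO) and were sorted for high CD45, a surface protein of white blood cells. There were 2 droplet single-cell RNA libraries 5 days and 2 libraries 14 days after tMCAO. All 4 libraries came from injured brain, no uninjured group was analysed here, and it is not stated if 1 mouse or several gave the cells of a library. The p-values below therefore measure the spread between libraries, which may be technical.

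C-type lectin receptors carry a fold that in its classical form binds sugars in a calcium-dependent way, and on myeloid cells they sense microbes, dead cells and other cells. One set of them (Clec4d, Clec4e, Clec4n, Clec5a) signals through adaptors such as Fcer1g or Tyrobp to the kinase Syk and activates the cell. Others, such as Clec4a2 and Clec12a, carry inhibitory motifs that dampen such signals. Clec9a binds actin filaments exposed by dead cells and is the textbook lectin of cross-presenting dendritic cells, and Clec2 proteins are ligands of NK cell receptors.

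The family is clustered in the genome. Of the 30 members 22 lie on chromosome 6 (build GRCm38). The Clec4 cluster runs from Clec4a1 (chr6:122921848-122934619, plus strand) through Clec4a3, Clec4a4, Clec4b1, Clec4a2, Clec4b2 and Clec4n to Clec4d (chr6:123262111-123275265, plus strand) and Clec4e (chr6:123281789-123289870, minus strand). The last 2 are separated by 6523 bases. A further cluster holds Clec2h, Clec2i, Clec2g, Clec2e, Clec2d (chr6:129180615-129186534, plus strand), Clec12a (chr6:129342691-129365303, plus strand), Clec12b, Clec1b, Clec9a (chr6:129408862-129424763, plus strand) and Clec1a. Clec5a (chr6:40574894-40585821, minus strand) and Clec10a (chr11:70156197-70170834, plus strand) stand alone. All 30 are annotated as protein-coding genes. Clec1b and Clec9a overlap on the same strand, so reads in the overlap could belong to either.

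The promoters of 4 members are shown because these genes gave the day differences that lost their call in the fewest re-analyses: Clec4d and Clec4e in neutrophils, Clec2d in monocyte-type cells and Clec12a in neutrophils. The RefSeq start used for Clec12a lies inside the annotated gene. Each sequence spans 250 bases before to 50 after the start of transcription, 5′ to 3′ on the gene's strand, from RefSeq (GRCm38.p6). Capitals mark a match, on either strand, to 1 of 4 motifs: a PU.1-type ETS motif (GAGGAAG), a C/EBP motif (TTGCNNAA), an interferon response element (GAAA, any 2 bases, GAAA) and an AP-1 motif (TGANTCA). Where motifs overlap, the capitals run on.
Clec4d (chr6:123261857-123262156, plus strand): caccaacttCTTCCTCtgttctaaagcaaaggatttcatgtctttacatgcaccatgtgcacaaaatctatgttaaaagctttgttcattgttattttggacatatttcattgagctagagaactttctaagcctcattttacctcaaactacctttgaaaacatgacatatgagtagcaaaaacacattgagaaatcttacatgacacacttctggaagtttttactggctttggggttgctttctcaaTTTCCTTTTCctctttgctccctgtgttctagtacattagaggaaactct
Clec4e (chr6:123289822-123290121, minus strand): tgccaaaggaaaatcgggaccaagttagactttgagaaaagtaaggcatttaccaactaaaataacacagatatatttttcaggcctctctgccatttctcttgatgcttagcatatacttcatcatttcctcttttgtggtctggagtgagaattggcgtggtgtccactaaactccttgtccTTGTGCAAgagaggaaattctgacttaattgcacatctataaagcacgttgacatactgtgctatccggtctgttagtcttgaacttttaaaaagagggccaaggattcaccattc
Clec2d (chr6:129180365-129180664, plus strand): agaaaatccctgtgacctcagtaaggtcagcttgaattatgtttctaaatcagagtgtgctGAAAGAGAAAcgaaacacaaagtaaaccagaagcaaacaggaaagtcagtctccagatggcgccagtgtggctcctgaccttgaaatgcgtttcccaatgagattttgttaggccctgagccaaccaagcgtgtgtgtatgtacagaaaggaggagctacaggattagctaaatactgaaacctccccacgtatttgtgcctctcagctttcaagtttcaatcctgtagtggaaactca
Clec12a (chr6:129349994-129350293, plus strand): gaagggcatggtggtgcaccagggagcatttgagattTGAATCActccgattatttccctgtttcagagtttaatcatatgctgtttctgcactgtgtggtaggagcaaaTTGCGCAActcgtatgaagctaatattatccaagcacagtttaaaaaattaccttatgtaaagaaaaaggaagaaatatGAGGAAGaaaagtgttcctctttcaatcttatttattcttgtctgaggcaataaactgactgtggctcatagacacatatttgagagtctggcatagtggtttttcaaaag

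Clec4d held an ETS and an interferon-type match and Clec4e a single C/EBP match, so these neighbours, which moved together in neutrophils, had no motif of the 4 in common in this window. Clec2d held 1 interferon-type match, and Clec12a held an AP-1, a C/EBP and an ETS match. Such letters are frequent. The ETS motif occurred in 13.6% of 32851 promoters of the same length, the C/EBP motif in 10.8%, the AP-1 motif in 7.8% and the interferon response element in 3.4%. Among the 26 promoters listed for 24 members, the ETS motif occurred in 7, the C/EBP motif in 6, the AP-1 motif in 6 and the interferon response element in 3 (Clec2d, Clec4b1 and Clec4d). Clec2i and Clec4a3 are each listed with overlapping windows, so the C/EBP match of Clec2i is counted more than once. A match is a description of the letters and not a binding site.

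The libraries held 2313 to 3486 cell barcodes and 9288054 to 13610119 UMIs (unique molecular identifiers, the count of RNA molecules), with median UMIs per barcode of 2882 to 4230. No pair of libraries shared more than 16 barcodes. The lowest barcode held 500 and 505 UMIs on day 5 but 1180 and 1317 on day 14, and the tables of the 2 days have different layouts, so day and the submitters' processing cannot be told apart. After filters on genes and mitochondrial reads 10841 cells remained, and 8759 were assigned to 12 classes by marker genes that include no Clec gene. A class needed 3 of its 8 markers, and conventional dendritic cells were then divided by Cd209a, Epcam and a further marker list. A further 563 cells carried markers of a second lineage and were left out. Microglia, border-associated macrophages, monocyte-type cells and all dendritic cells counted as the same lineage, as did T and NK cells. This step therefore did not screen those classes against each other. The classes carried a median of 4 to 6 of their own markers. Plasmacytoid dendritic cells also carried a median of 3 markers of the monocyte list and border-associated macrophages 3 of the microglial list. Of the 299 neutrophils 27.4% stood at the minimum of 3 markers. Epcam-positive dendritic cells and border-associated macrophages had too few cells on day 14 for a test, so their levels are given without one.

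Levels are given as CPM, the UMIs of a gene relative to all UMIs of its class in the library, scaled by the TMM method. Values for 4 libraries are given in the order day 5 replicates 1 and 2, then day 14 replicates 1 and 2. Of the 30 members 24 had 1 UMI or more, and 13 reached a mean of 50 CPM in a class and are described one by one. Of those 13, neutrophils held the highest mean level of 5 (Clec4a2, Clec4d, Clec4e, Clec4n and Clec5a), and monocyte-type cells of 2 (Clec4a1 and Clec4a3). In cDC2, the conventional dendritic cells that prime helper T cells, 2 were highest (Clec10a and Clec4b1). The cross-presenting cDC1 held the highest level of Clec9a, plasmacytoid dendritic cells of Clec12a, migratory dendritic cells of Clec2d, and B cells of Clec2i. For 8 of the 13 the same class was highest in all 4 libraries.

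**Figure D1:**
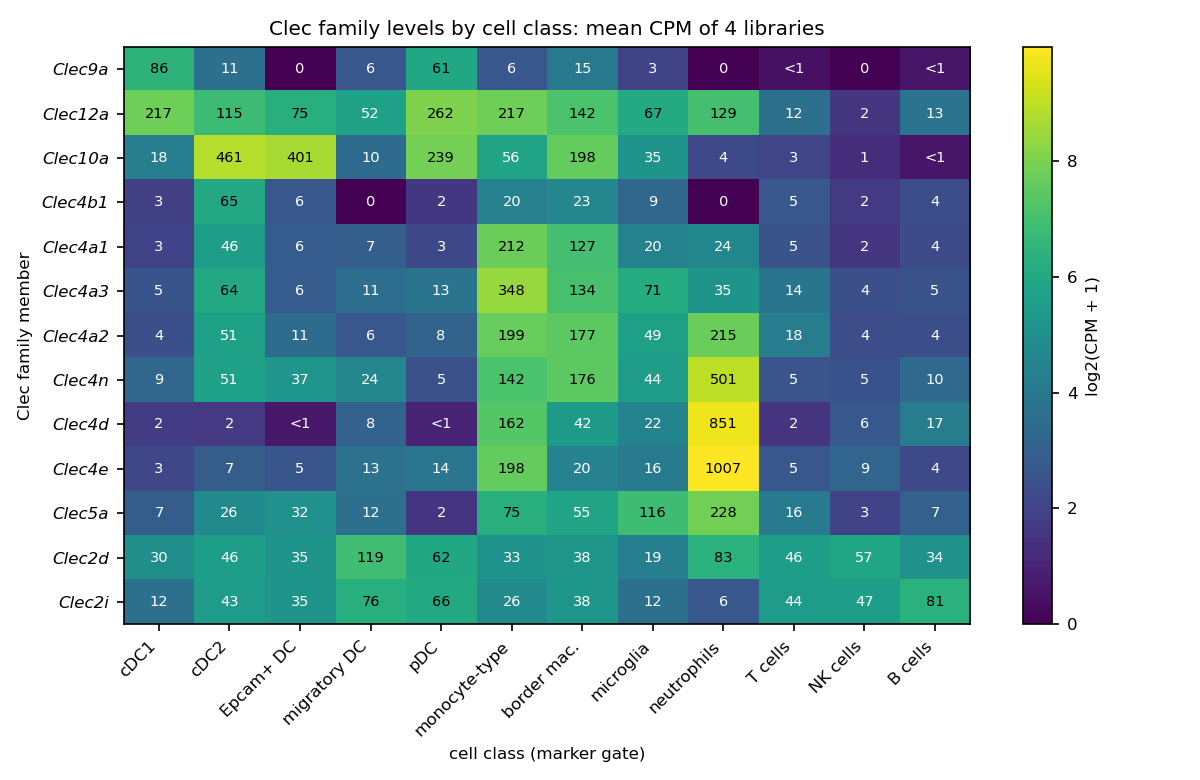
Heat map of the mean level (numbers in the cells, CPM over the 4 libraries; colour, log2 of CPM + 1) of the 13 described members in the 12 marker-gated classes. Clec4d and Clec4e peak in neutrophils (851 and 1007 CPM), Clec10a in cDC2 (461 CPM) and Clec9a in cDC1 (86.5 CPM).

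The summed level of all members was highest in neutrophils, at 2033 to 4155 CPM over the 4 libraries. Monocyte-type cells followed at 1403 to 1961 CPM, and border-associated macrophages lay at 1111 to 1281 CPM. Among dendritic cells cDC2 held 842 to 1180 CPM, plasmacytoid cells 714 to 793 CPM and cDC1 386 to 450 CPM. Microglia held 442 to 515 CPM. Lymphocytes were lowest, with means of 188 CPM in B cells, 185 CPM in T cells and 151 CPM in NK cells. The ranges of neutrophils and monocyte-type cells did not overlap, whereas those of cDC2 and border-associated macrophages did.

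Among the lectins of dendritic cells, Clec9a was measured in cDC1 at 63.5, 90.5, 91.3 and 100.5 CPM and in plasmacytoid dendritic cells at 32.7, 50.9, 78.9 and 82.3 CPM. In cDC2 it was at 9.93, 12.9, 17.6 and 5.06 CPM, and all 4 cDC1 libraries lay above all 4 cDC2 libraries. The ranges of cDC1 and plasmacytoid cells overlapped, and with unscaled CPM cDC1 were highest in 2 of the 4 libraries instead of 4. Clec9a had a UMI in 20% to 40.7% of cDC1 cells (median depths 5764 to 7313 UMIs). It had a UMI in 0 of 299 neutrophils, which allows a share of up to 1.00% of cells with a UMI (not of cells expressing the gene), and in no NK cell or Epcam-positive dendritic cell. Neutrophils are shallower (median depths 1048 to 1563 UMIs). At an equal depth of 800 UMIs the share of cDC1 cells with Clec9a was 5.00% to 7.89%.

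Clec10a, a galactose-type lectin of dendritic cells and macrophages, divided cDC2 from cDC1. The gate itself required a Cd209a UMI in cDC2 and none in cDC1. Its levels were 397, 412, 530 and 503 CPM in cDC2 against 7.94, 13.6, 11.7 and 39.4 CPM in cDC1, without overlap. Epcam-positive dendritic cells stood close to cDC2 at 481, 502, 461 and 162 CPM, the last library resting on 10 cells. Plasmacytoid cells lay between, at 180 to 299 CPM, as did border-associated macrophages at 104 to 243 CPM. Of the 3′ windows searched for Clec10a, 11.1% also occur in its near copy Mgl2, so the sequence of reads there cannot tell the genes apart. Clec4b1, whose protein is a receptor of the Clec4 cluster, was measured in cDC2 at 54.6, 51.5, 102 and 50.6 CPM. The next class, border-associated macrophages, reached 31.0 CPM at most, and no Clec4b1 UMI was found in migratory dendritic cells or neutrophils. Of its 3′ windows 10.8% are shared with Clec4a2, and 8.2% of those of Clec4a2 with Clec4a4 or Clec4b1.

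In the direct comparison of cDC1 with cDC2, 2 of 13 members were higher in cDC1 and 8 lower, while 16.7% of the 5756 genes tested were called. The test was edgeR's quasi-likelihood test over all genes, with the library as a block, and a call is an adjusted p under 0.05. Clec9a was higher in cDC1 by 2.97 ± 0.40 on the log2 scale (approximate SE, adjusted p = 8.47e-07) and Clec12a by 1.00 ± 0.31 (adjusted p = 0.018). Lower in cDC1 were Clec4b1 (-4.95 ± 0.68), Clec4a1 (-4.51 ± 0.63), Clec10a (-4.37 ± 0.31), Clec4a3 (-3.52 ± 0.48), Clec4a2, Clec4n, Clec2i and Clec5a. The members' median was -1.93 against -0.01 for all genes. Each gene of the Clec4 cluster that passed the test was thus higher in cDC2.

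Set against the mean of the other 9 tested classes, cDC1 had 2 members higher and 8 lower, beside 34.7% of all genes called. The 2 were Clec9a (5.17 ± 0.32) and Clec12a (2.20 ± 0.24). cDC2 had 8 higher and 2 lower, beside 24.1% of all genes, led by Clec10a (5.31 ± 0.21) and Clec4b1 (5.14 ± 0.45). The sizes for Clec9a and Clec4b1 depend on how classes without a UMI of the gene are fitted, because the mean includes them. Among these were neutrophils and NK cells for Clec9a, and neutrophils and migratory dendritic cells for Clec4b1. Both genes also passed the filter on low counts through the classes where they were high. Their calls in this fit, cDC1 against cDC2 included, therefore describe those levels. The members' medians were -1.65 in cDC1 and 1.24 in cDC2, against 0.03 and 0.04 for all genes. With the day 5 libraries alone the calls fell to 2 in cDC1 and 3 in cDC2.

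Plasmacytoid dendritic cells, the main producers of type I interferon, had 4 members higher and 1 lower, where 28.4% of all genes were called. Clec9a (4.83 ± 0.45), Clec10a (4.46 ± 0.30), Clec12a (2.56 ± 0.29) and Clec2i (1.30 ± 0.29) were higher, and Clec5a was lower (-3.43 ± 1.11). The size and the call of Clec9a have the same limits as in cDC1, from classes without a UMI and from the filter. The members' median was -0.65 against -0.03 for all genes. Clec12a, an inhibitory receptor for uric acid crystals, was measured in these cells at 393, 306, 192 and 157 CPM, in cDC1 at 215, 235, 208 and 209 CPM and in monocyte-type cells at 159, 239, 276 and 195 CPM. These 3 ranges overlap, so no single class led in Clec12a. Migratory dendritic cells, which have switched on the lymph node homing receptor Ccr7, had 2 of 13 members higher and 0 lower, beside 40.8% of all genes called. These were Clec2d (1.69 ± 0.24) and Clec2i (1.54 ± 0.27), and the members' median was -0.26 against -0.08 for all genes.

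Monocyte-type cells held 9 members at a mean of 50 CPM or more, the most of the 12 classes. Clec4a3, a gene of the Clec4a group of the cluster, was at 242, 298, 456 and 396 CPM, and its neighbour Clec4a1 at 153, 171, 284 and 240 CPM. For Clec4a3 the lowest of these lay above the highest library of any other class, 152 CPM in border-associated macrophages. For Clec4a1 the ranges of the 2 classes overlapped. Against the mean of the other classes 10 of 13 members were higher and 1 (Clec2d, -0.71 ± 0.19) was lower, beside 43.4% of all genes called. The largest differences were Clec4a1 (4.75 ± 0.18), Clec4a3 (4.36 ± 0.15), Clec4d (3.98 ± 0.25), Clec4e (3.71 ± 0.19) and Clec4a2 (3.66 ± 0.19), and the members' median was 2.71 against 0.03 for all genes.

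In microglia, the resident macrophages of the brain, Clec5a was the member farthest above the mean of the other classes, by 3.17 ± 0.21. Clec5a, a Tyrobp-coupled receptor of myeloid cells, was at 99.5, 97.4, 133 and 135 CPM in microglia and at 50.2, 66.5, 83.7 and 98.1 CPM in monocyte-type cells. Within each library microglia held more than monocyte-type cells, although the ranges over the 4 libraries overlapped slightly. Microglia had 8 members higher and 2 lower (Clec2i, -1.59 ± 0.26 and Clec2d, -1.48 ± 0.22), where 48.5% of all genes were called, and the members' median was 1.08 against 0.03 for all genes. Among the 8 was Clec10a (1.51 ± 0.30), whose microglial UMIs lay mostly in cells that also held dendritic or border-associated macrophage markers.

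Monocyte-type cells exceeded microglia in 10 of 13 members and fell below them in 1, beside 40.6% of all genes called. Clec5a was the one lower in monocyte-type cells (-0.70 ± 0.20, adjusted p = 0.00365 by edgeR's quasi-likelihood test). Clec4e (3.40 ± 0.24), Clec4a1 (3.09 ± 0.20), Clec4d (2.64 ± 0.27) and Clec4a3 (2.13 ± 0.18) were the farthest apart in the other direction. The members' median was 1.47 against -0.02 for all genes. Clec10a differed by 0.26 ± 0.23 (adjusted p = 0.404) and Clec9a by 0.88 ± 0.43 (adjusted p = 0.10), both short of the threshold. Microglia held 174, 282, 18 and 8 Clec10a UMIs. Only 9, 10, 3 and 0 of these lay in microglia with at most 1 dendritic and at most 1 border-associated macrophage marker.

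Neutrophils carried the activating lectins of the Clec4 cluster. Clec4e (Mincle, a sensor of mycobacterial glycolipids and of dead cells) was at 656, 684, 1498 and 1189 CPM in neutrophils and at 186, 142, 199 and 266 CPM in monocyte-type cells. Clec4d, its partner and neighbour, was at 405, 237, 1159 and 1605 CPM in neutrophils and at 217, 113, 118 and 201 CPM in monocyte-type cells. For both genes every neutrophil library lay above every monocyte-type library. Clec4n (Dectin-2, a receptor for fungal mannans) was at 450, 156, 538 and 860 CPM in neutrophils, and the second day 5 library fell inside the range of monocyte-type cells (107 to 204 CPM). Clec4e had a UMI in 40.4% and 41.7% of neutrophils on day 5 and in 77.1% and 66.7% on day 14. At an equal depth of 800 UMIs, which left out 19 and 26 of the day 5 neutrophils, these shares were 30.7% and 33.7% against 56.3% and 50%. In microglia and cDC1 at that depth the share was 1.45% at most.

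Of 13 members 9 were higher and 1 lower in neutrophils than in the mean of the other classes, beside 36.3% of all genes called. Clec4d (6.85 ± 0.29), Clec4e (6.70 ± 0.21), Clec4n (5.03 ± 0.31), Clec5a (4.59 ± 0.33) and Clec4a2 (4.21 ± 0.32) led, and the members' median was 1.69 against -0.22 for all genes. Clec4b1 and Clec9a had no UMI in neutrophils and so have no fitted value to quote. Monocyte-type cells compared with neutrophils had 4 members higher and 5 lower, beside 31.7% of all genes called. Clec4e (-2.69 ± 0.21), Clec4d (-2.58 ± 0.26), Clec4n (-2.09 ± 0.28), Clec5a (-1.98 ± 0.28) and Clec2d (-1.59 ± 0.42) were lower in monocyte-type cells. Clec4a3 (2.79 ± 0.36) and Clec4a1 (2.76 ± 0.42) were higher, as were Clec10a, which had 1 UMI in neutrophils, and Clec4b1, at least 2.51-fold higher against a floor of 3 UMIs over the 4 libraries. The members' median was 0.22, or -0.12 with the members at 0 set to that floor, against 0.27 for all genes.

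Along the Clec4 cluster the leading class fell into runs of neighbours. By mean level Clec4a1 and Clec4a3 were highest in monocyte-type cells, Clec4b1 in cDC2, and Clec4a2, Clec4n, Clec4d and Clec4e in neutrophils. For Clec4n neutrophils led in 3 of the 4 libraries, and their range overlapped that of border-associated macrophages. Between them Clec4a4 and Clec4b2 held only 17 and 3 UMIs in all barcodes. For Clec4a2 the lead is not resolved: neutrophils were at 252, 407, 129 and 71.7 CPM and monocyte-type cells at 192, 235, 201 and 168 CPM, each class being higher on a different day.

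**Figure D2:**
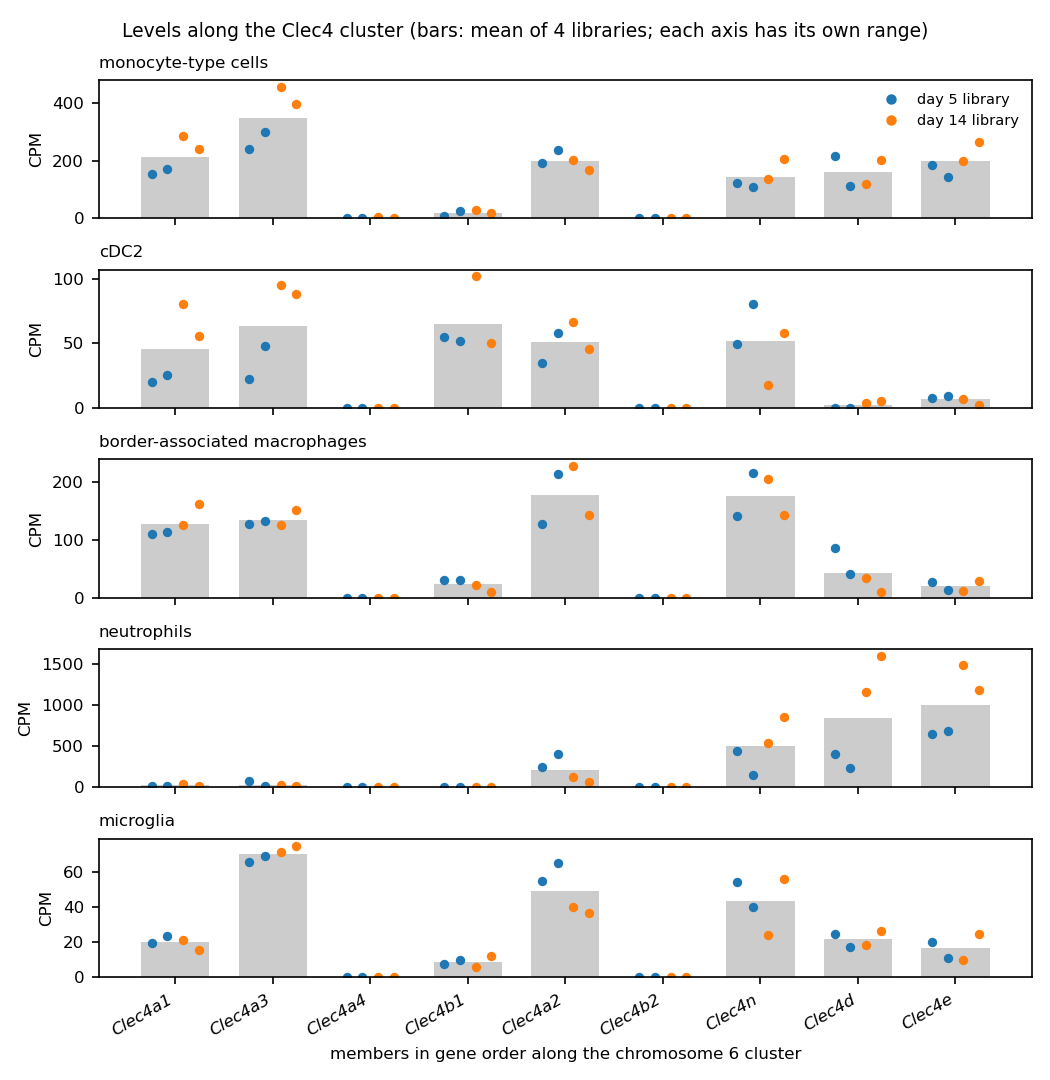
Level of the Clec4 cluster genes in genomic order (x axis) in 5 classes, 1 panel each (y axis CPM, with its own range in each panel; bars are means of 4 libraries, blue points day 5 and orange points day 14 libraries). By mean level, the monocyte-type lead at the Clec4a1 end gives way to the neutrophil lead at Clec4n, Clec4d and Clec4e (means 501, 851 and 1007 CPM in neutrophils). At Clec4n neutrophils led in 3 of the 4 libraries.

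Of the Clec2 genes, Clec2d and Clec2i reached the level for a description. Clec2d, whose protein is a ligand of the NK receptor Klrb1b, was at 10 CPM or more on average in all 12 classes. It was highest in migratory dendritic cells, at 63.4, 59.6, 194 and 159 CPM. Without TMM scaling migratory cells led in 2 of the 4 libraries. Clec2i, another ligand of Klrb1-type receptors, was at 114, 85.4, 66.1 and 60.3 CPM in B cells and at a mean of 76.2 CPM in migratory dendritic cells, with overlapping ranges. It was low in neutrophils, with 3 UMIs in all.

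Between day 5 and day 14 a member passed the test 13 times over the 10 classes tested, 10 times higher and 3 times lower on day 14. The classes share the 4 libraries, and the fits have 2 residual degrees of freedom each. For each class the members called stand beside the share of all genes called in the same fit. In monocyte-type cells 4 of 12 members tested rose and 0 fell, against 5.1% of all genes called. In neutrophils 3 of 7 rose and 2 fell, against 21% of all genes called. In cDC2 2 of 10 rose, against 4.66% of all genes called, in migratory dendritic cells 1 of 3 rose (2.67%), and in microglia 1 of 12 fell (2.69%).

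**Figure D3:**
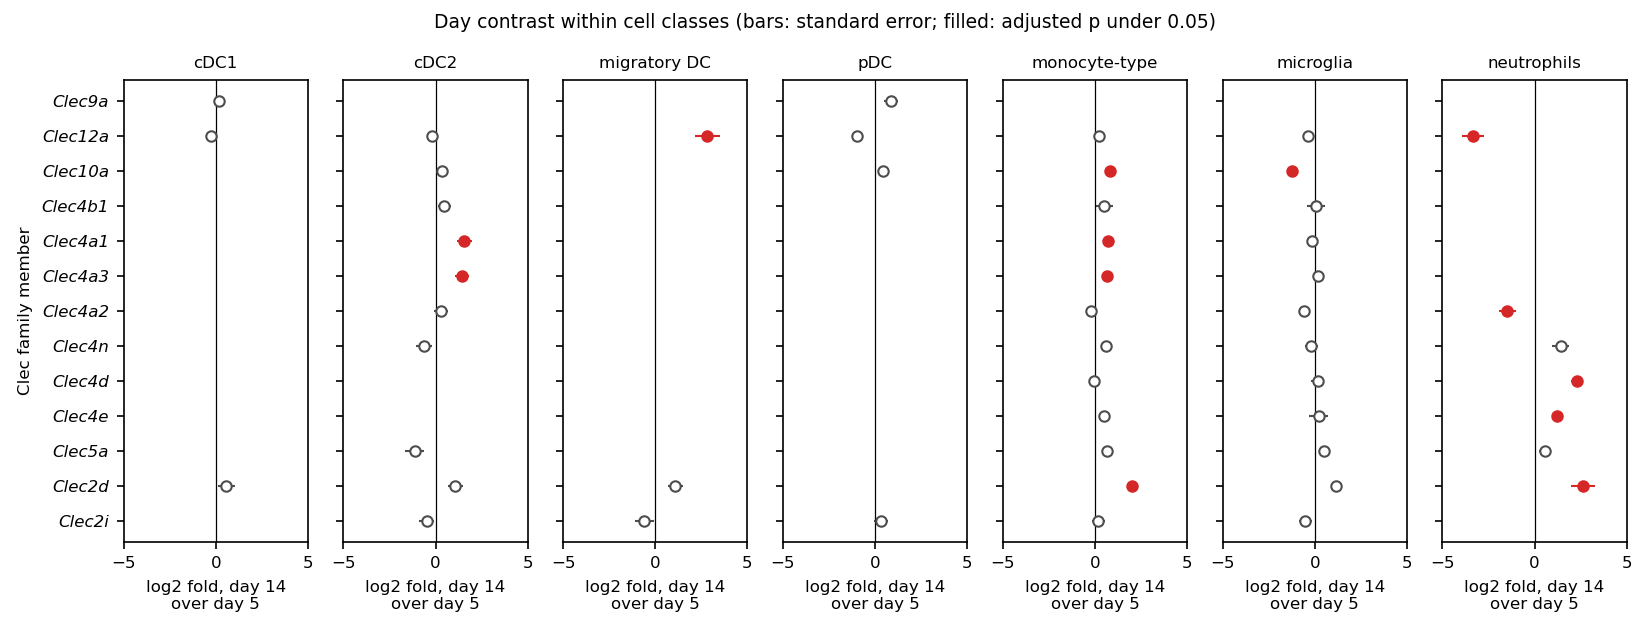
Log2 fold change (x axis), day 14 against day 5, of the members tested (y axis) in 7 classes (edgeR, with bars for approximate standard errors). Filled points passed an adjusted p of 0.05. The neutrophil values run from -3.35 (Clec12a) to 2.63 (Clec2d).

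In the remaining classes no member passed edgeR's test. These were cDC1, with 0 of 3 called beside 1.51% of all genes, plasmacytoid dendritic cells with 0 of 4 beside 1.14%, T cells with 0 of 4 beside 3.29%, NK cells with 0 of 2 beside 6.03% and B cells with 0 of 1 beside 3.27%. At an unadjusted p under 0.05 the counts were 0, 1, 1, 0 and 0, and DESeq2 called 0 in each of these classes. The 1 in plasmacytoid cells was Clec12a (-0.99 ± 0.25, adjusted p = 0.176).

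In monocyte-type cells Clec2d was at 17.2 and 9.30 CPM on day 5 and at 49.9 and 56.8 CPM on day 14. It rose by 2.01 ± 0.27 on the log2 scale (adjusted p = 0.00372). This call held in all 11 alternative analyses, with values of 1.65 to 2.51 and adjusted p of 7.28e-10 to 0.00484. Clec2d was fitted above 0 in each of the 8 classes in which it was tested, by 0.40 to 2.63, and passed in 2 of them, monocyte-type cells and neutrophils. The T cell marker list summed to 1.2 and 6.0 CPM in monocyte-type cells on day 5 and to 45.9 and 85.9 CPM on day 14, with Cd3e, Cd3g and Trac at 0 on day 5 only. Its part in the result was not tested, and T cells themselves held Clec2d at a mean of 46.4 CPM.

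The other members that rose in monocyte-type cells were smaller changes. Clec4a1 rose by 0.68 ± 0.15 (adjusted p = 0.0358) from 153 and 171 CPM to 284 and 240 CPM. Clec4a3 rose by 0.65 ± 0.15 (adjusted p = 0.0493), from 242 and 298 to 456 and 396 CPM. Clec10a rose by 0.81 ± 0.18 (adjusted p = 0.0388), from 36.6 and 44.3 to 70.7 and 71.6 CPM. In each case both day 14 libraries lay above both day 5 libraries. Over the members tested the median was 0.55 against -0.01 for all genes. With the replicate number as a block, with DESeq2, or without day 5 replicate 1, these 3 calls were lost (adjusted p of 0.0547 to 0.25), that of Clec4a3 also without day 14 replicate 1 (0.0572), and those of Clec4a3 (0.0559) and Clec10a (0.10) also with mixed cells kept. The dendritic marker list summed to 607 to 696 CPM on day 5 and to 640 to 661 CPM on day 14 in monocyte-type cells. Within it Cd209a (81.1 and 124.2 to 157.6 and 215.6 CPM) and Ciita (20.8 and 23.8 to 52.3 and 44.9 CPM) were higher and Napsa was lower (449.1 and 508.7 to 383.6 and 308.7 CPM) on day 14. The part of these markers in the results was not tested.

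Clec4a1 and Clec4a3 also rose in cDC2. Clec4a1 went from 19.9 and 25.8 CPM to 80.8 and 55.6 CPM, resting on 8, 8, 23 and 22 UMIs, and rose by 1.57 ± 0.40 (adjusted p = 0.0289). Clec4a3 went from 22.3 and 48.3 CPM to 94.8 and 88.5 CPM and rose by 1.44 ± 0.37 (adjusted p = 0.0288). Neither gene overlapped between the days, and the members' median was 0.33 against -0.02 for all genes. The monocyte marker list summed to 2160 and 1481 CPM in cDC2 on day 5 and to 4300 and 5238 CPM on day 14, with Vcan at 0 on both days. Within it Plac8 (1076 and 719 to 2478 and 3144 CPM) and Ms4a4c (285 and 221 to 963 and 1020 CPM) were higher on day 14. Ly6c2 was also higher (123 and 42.3 to 211 and 581 CPM), while Ccr2 was similar (630 and 477 to 635 and 484 CPM). Chil3 and Fn1, at 23.1 CPM at most, were lower, and Hp was at 2.4 CPM at most. The part of this list in the result was not tested. The calls are not firm: neither passed with the replicate block (adjusted p of 0.0713 and 0.0833) or without day 5 replicate 1 (0.13 and 0.278), and DESeq2 called no member. Clec4a1 was also lost with 1 more marker in the gate (0.0838) and without day 5 replicate 2 (0.103) or day 14 replicate 1 (0.168), and Clec4a3 without day 14 replicate 2 (0.0696).

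In migratory dendritic cells Clec12a was counted with 1 and 1 UMIs on day 5 and with 22 and 33 on day 14. Over the summed UMIs of each day these 55 against 2 UMIs give a ratio of 9.99 (exact interval 2.64 to 84.5, counting error only). In CPM the libraries stood at 9.06 and 9.93 on day 5 and at 90.6 and 97.3 on day 14, without overlap, and the fitted rise was 2.82 ± 0.69 (adjusted p = 0.0407). For the members as a group the median was 1.08 against -0.02 for all genes. The call was lost in 6 of the 8 alternatives that gave a value, among them both other gates, the replicate block (adjusted p = 0.0946) and the fits without day 5 replicate 1 (0.154) or 2 (0.102). Without either day 14 library Clec12a was not tested. In these cells the plasmacytoid marker list summed to 61.8 and 137 CPM on day 5 and to 188 and 232 CPM on day 14. Of its 8 markers only Spib (10.3 and 34.3 to 121.5 and 166.2 CPM) was higher in both day 14 libraries than in both day 5 libraries, Siglech was at 20.6 and 34.3 against 18.4 and 9.4 CPM, and Ccr9, Klk1 and Pacsin1 were at 0 on both days. The monocyte list summed to 392 and 458 CPM on day 5 and to 504 and 932 CPM on day 14, with Plac8 (61.9 and 45.8 to 239.4 and 552.5 CPM) and Ly6c2 (0 and 22.9 to 84.7 and 112.4 CPM) higher and Ms4a4c lower (330.1 and 366.1 to 139.9 and 220.1 CPM). The part of either list in the result was not tested.

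Neutrophils changed in both directions. Clec4d rose by 2.31 ± 0.33 (adjusted p = 0.00285) and Clec4e by 1.21 ± 0.25 (adjusted p = 0.0122), and both day 14 libraries of each gene exceeded both day 5 libraries. Clec2d, on 6, 1, 14 and 8 UMIs, rose by 2.63 ± 0.64 (adjusted p = 0.0218). Clec12a went from 191 and 285 CPM to 11.7 and 28.7 CPM and fell by 3.35 ± 0.61 (adjusted p = 0.00726). With mixed cells kept Clec12a fell by 1.95 ± 0.44 (log2, adjusted p = 0.009). The 67 UMIs on day 5 against 3 on day 14 give a ratio of 12.4 (exact interval 4.08 to 61.8). Clec4a2 went from 252 and 407 CPM to 129 and 71.7 CPM and fell by 1.48 ± 0.45 (adjusted p = 0.049). Clec4n differed by 1.41 ± 0.47 (adjusted p = 0.0634) and Clec5a by 0.56 ± 0.34 (adjusted p = 0.254), short of the threshold. The median of the members was 1.21 against -0.03 for all genes.

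**Figure D4:**
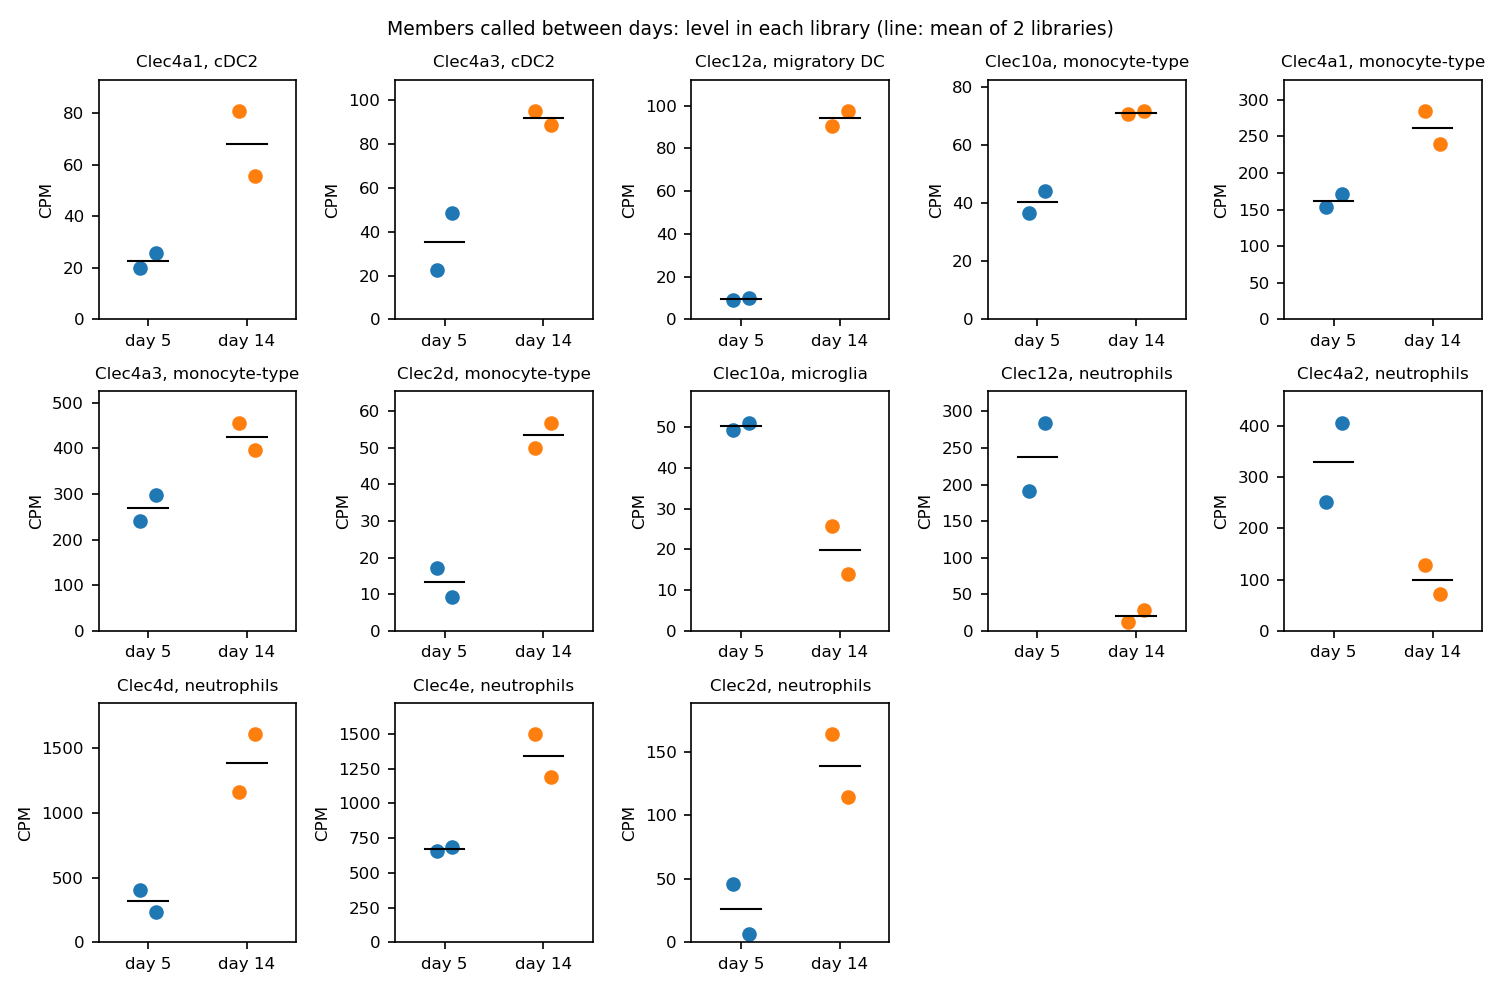
Level by library (CPM) of the members called between days, 1 panel for each gene and class; each point is 1 library, lines are means of 2, and each panel has its own range from 0. Clec4d and Clec4e in neutrophils lie higher on day 14, Clec12a and Clec4a2 lower.

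The day 14 neutrophils number 48 and 42 cells, and without either day 14 library no gene at all was called in this class. Without day 5 replicate 2, Clec4a2 (adjusted p = 0.126) and Clec2d (adjusted p = 0.135) lost their calls while Clec4d, Clec4e and Clec12a kept theirs. DESeq2 called neither (0.177 and 0.0784), Clec4a2 was also lost with 1 fewer marker (0.0539) and with DESeq2's size factors (0.0522), and the rise of Clec2d ranged from 1.84 without day 5 replicate 2 to 4.26 without day 5 replicate 1. The neutrophils of the 2 days also differed in other markers. The monocyte list summed to 4195 and 6957 CPM on day 5 and to 1898 and 2546 CPM on day 14, with Vcan at 0 on both days. The fall lay mostly in Chil3, at 2140 and 4173 CPM against 12.9 and 14.7 CPM. Without Chil3 the list summed to 2055 and 2784 CPM on day 5 and to 2533 and 1883 CPM on day 14, with overlap. Within it Hp was lower on day 14 (1334.4 and 1958.3 to 668.5 and 868.1 CPM) and Plac8 was higher (391 and 173 to 977 and 544 CPM). Chil3 is also known from young neutrophils. The T cell list summed to 0 and 5.6 CPM on day 5 and to 132 and 154 CPM on day 14, with Bcl11b at 0 on both days. The part of either list in the results was not tested.

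Levels in neutrophils with and without a Chil3 UMI are given side by side. On day 5, 34 and 43 neutrophils had a Chil3 UMI and 60 and 72 had none, while on day 14 only 1 cell in each library had one. The day 5 cells without one were shallower (means of 1214 and 1048 UMIs against 1694 and 2414), so a missing UMI does not show that Chil3 was off. Among cells without Chil3, Clec4d was at 563 and 411 unscaled CPM on day 5 and at 1281 and 1659 on day 14. Clec4e went from 838 and 822 to 1634 and 1233, again without overlap. Clec12a went from 165 and 92.8 to 13.1 and 30.4. Clec4a2, at 220 and 106 against 118 and 76.1, overlapped between the days. On day 5 itself the cells with Chil3 held less Clec4d (208 and 38.5), less Clec4e (434 and 376) and more Clec12a (226 and 337) than the cells without it in the same library. These cells were split by a measured gene, so the values are a description without a test.

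**Figure D5:**
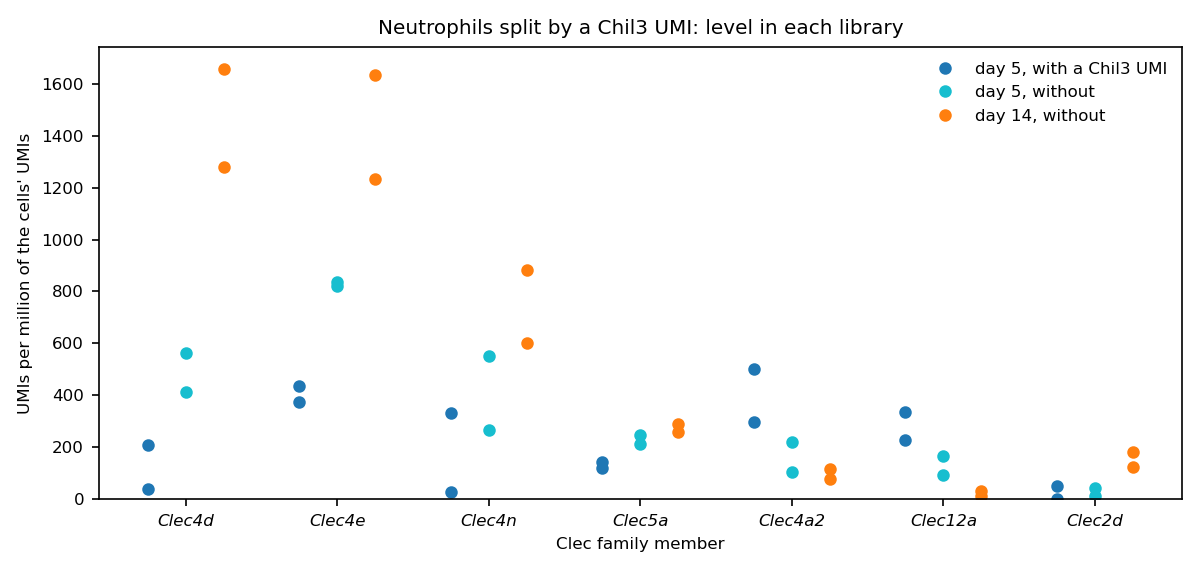
Unscaled CPM (y axis) of 7 members in neutrophils with and without a Chil3 UMI; each point is 1 library, and the day 14 cells with Chil3 (1 per library) are not drawn. Among cells without Chil3, Clec4d and Clec4e are higher and Clec12a is lower on day 14.

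In microglia Clec10a was at 49.3 and 51.1 CPM on day 5 and at 25.7 and 14.0 CPM on day 14, and it fell by 1.23 ± 0.26 (adjusted p = 0.0444). This call was lost with the replicate block (adjusted p = 0.118), with DESeq2 (0.117) and without day 14 replicate 2 (0.125). Clec5a (0.52 ± 0.14, adjusted p = 0.0958) and Clec2d (1.16 ± 0.30, adjusted p = 0.0919) were fitted higher but not called, and the members' median was -0.04 against -0.01 for all genes. The Clec10a counts sat in a minority of the cells. Microglia with at most 1 dendritic and at most 1 border-associated macrophage marker (693, 1218, 210 and 106 cells) held only 9, 10, 3 and 0 of the 174, 282, 18 and 8 Clec10a UMIs. The other microglia held Clec10a at 76.4 and 89.4 unscaled CPM on day 5. On day 14 they held it at 118 and 34.7 unscaled CPM, so the days overlapped there. The dendritic marker list summed to 335 and 358 CPM in microglia on day 5 and to 112 and 183 CPM on day 14, and the border-associated list went from 354 and 355 CPM to 180 and 200 CPM. In the restricted cells Clec10a did not pass the filter on low counts, so it was not tested there. Clec2d passed there, with a rise of 1.68 ± 0.41 (adjusted p = 0.0228), the 1 of 9 members tested that was called beside 4.54% of all genes. The T cell list summed to 10.6 and 12.1 CPM over all microglia on day 5 and to 28.0 and 96.7 CPM on day 14, with none of its markers at 0, and its part in the result was not tested.

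The day effect on Clec10a differed between monocyte-type cells and microglia by 2.06 ± 0.32 on the log2 scale (adjusted p = 0.0177 for the interaction by edgeR's quasi-likelihood test). It was the only 1 of 12 members so called, beside 0.534% of all genes. With the restricted microglia the difference was 1.17 ± 0.87 (adjusted p = 0.788 by the same test). Those microglia held 9, 10, 3 and 0 Clec10a UMIs, and the gene entered this fit through the monocyte-type cells. The fit therefore cannot decide if the difference persists there. The values for the other 11 members, from -0.17 (Clec4d) to 0.84 (Clec2d), did not pass, so a call in one of these classes alone does not show a difference between them.

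The signalling partners of these receptors were counted from a list of 20 genes (adaptors, Syk, Card9, Bcl10, Malt1, phosphatases and others). Between days 0 of 19 tested in monocyte-type cells, 0 of 20 in microglia and 0 of 10 in neutrophils were called, beside 5.1%, 2.69% and 21% of all genes. In cDC2 1 of 16 was called (4.66% of all genes), Malt1, which fell by 1.43 ± 0.36. In T cells, whose own Clec levels are low, Tyrobp fell by 1.23 ± 0.15 and Fcer1g by 0.89 ± 0.15, 2 of 14 tested (3.29% of all genes). Against the mean of the other classes 12 of 18 were higher and 2 lower in monocyte-type cells, where 43.4% of all genes were called. The counts were 9 and 2 in neutrophils (36.3% of all genes), 9 and 2 in microglia (48.5%), and 3 and 9 in migratory dendritic cells (40.8%). In neutrophils, where Clec4d, Clec4e and Clec5a were highest, the adaptors Hcst (2.15 ± 0.21), Tyrobp (2.12 ± 0.13) and Lcp2 (1.99 ± 0.24) were higher and Blnk was lower (-2.48 ± 0.84). In cDC1 against cDC2 0 of 18 were higher and 9 lower, beside 16.7% of all genes called, among them the adaptor protein Blnk (-3.08 ± 0.48) and Fcer1g (-1.91 ± 0.18), with a list median of -0.73.

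Of 16 genes with a C-type lectin domain but another name, 3 of 10 tested rose in monocyte-type cells on day 14, beside 5.1% of all genes called. Klrb1b, a receptor for Clec2d, rose by 2.12 ± 0.36 (adjusted p = 0.011), Cd209d by 1.66 ± 0.37 and Cd69 by 1.26 ± 0.26. In cDC2 Mgl2 rose by 1.04 ± 0.22 and Cd72 fell by 1.42 ± 0.22, 2 of 8 tested (4.66% of all genes). In cDC1 Cd72 (-2.19 ± 0.26) and Klrd1 (-1.09 ± 0.19) fell, 2 of 3 tested (1.51% of all genes). Klrd1 also fell in microglia by 1.42 ± 0.21, 1 of 9 tested (2.69% of all genes), and in migratory dendritic cells by 1.30 ± 0.27, 1 of 2 tested (2.67%). The Klrd1, Cd69 and Klrb1b genes are best known from lymphocytes.

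The remaining members were scarce. Clec14a, Clec18a, Clec2e, Clec2h, Clec3a and Clec4f had no UMI in any barcode. The 11 others held 3 UMIs (Clec2l and Clec4b2) to 86 UMIs (Clec16a) in all. Among them Clec4g reached 11.2 CPM in plasmacytoid dendritic cells, Clec1a 11.1 CPM in neutrophils and Clec1b 5.97 CPM in plasmacytoid dendritic cells. None of these genes passed the filter on low counts in the reported day fits, so their differences between days were not tested there.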

How the data were processed

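RNA of single cells was measured with droplet libraries (10x 3′ chemistry), 2 per day. The authors deposited UMI counts per gene and cell barcode, and the submitters' processing notes name Cell Ranger 3.0.1, Seurat 2.3.4 and the builds GRCm38 and mm10. The header of the day 5 matrices names version 3.0.1, and that of the day 14 matrices is empty. The annotation release is not given in the sources used here.

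Barcodes with under 200 genes or over 10% mitochondrial UMIs were left out. A cell entered a class with 3 or more of 8 markers, and with more of them than of any other class list. It was left out as mixed with 4 or more markers of another lineage. The lineages were mononuclear phagocytes (microglia, border-associated macrophages, monocyte-type and all dendritic cells), T or NK cells, B cells and neutrophils. Markers of another class of the same lineage did not make a cell mixed. Conventional dendritic cells were divided further. cDC1 held 3 or more of 8 cDC1 markers and no Cd209a UMI. Of those with under 3 cDC1 markers, cells with an Epcam UMI were called Epcam-positive. Those with a Cd209a UMI and no Epcam UMI were cDC2. The 137 other conventional dendritic cells were left out. No doublet caller was run. Counts were summed per class and library and tested with edgeR 4.0.16 in R 4.3.3 (TMM, filterByExpr, quasi-likelihood F test, Benjamini-Hochberg over all genes tested, threshold 0.05) in classes with 20 or more cells in every library. Day was the only term of the day fits, and class fits had the library as a block. The ± values of edgeR are approximate standard errors, the absolute log2 fold change divided by the square root of F. DESeq2 1.42.0 was an alternative. The scripts were tested on simulated data. Detection shares were compared after thinning each cell to 800 UMIs. Intervals of count ratios are exact at 95% and cover counting error only. Positions come from the annotation of GRCm38, and shared 3′ ends were counted as 60-base windows in the last 400 bases of each transcript.

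Members and lists were chosen with earlier results of these data known. Members were described by value where a class mean reached 50 CPM or a day test called them, and from the other lists up to 4 called genes per class were named by size. The gate limits were set after cell numbers had been seen. Levels under plain CPM were compared with the TMM-scaled ones.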

Additional observations from a re-analysis of the deposited data

Results flagged for a closer look

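The day effect on Clec10a differed between monocyte-type cells and microglia by 2.06 on the log2 scale in a test of the interaction, which flagged it. Clec10a rose by 0.81 ± 0.18 in monocyte-type cells and fell by 1.23 ± 0.26 in microglia. With microglia restricted to cells with at most 1 dendritic and 1 border-associated macrophage marker the difference was 1.17 ± 0.87 (edgeR's adjusted p = 0.788). Those cells held 9, 10, 3 and 0 Clec10a UMIs, too few to decide if the difference persists there.

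Clec12a was flagged because its libraries moved in opposite directions in 2 classes: both day 14 libraries were higher in migratory dendritic cells (2.82 on the log2 scale) and both were lower in neutrophils (-3.35). This difference between the classes was not tested.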

How the results depend on the processing

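None of the 13 day calls of members reversed its direction under the alternatives that gave a value. Of these calls 13 were kept without a filter on low counts, 12 with DESeq2's size factors in edgeR, 10 of 12 with 1 more gating marker, 10 with 1 fewer marker, 10 with mixed cells kept, 6 with the replicate number as a block and 4 of 11 with DESeq2. Leaving out 1 library kept 7 (without day 5 replicate 1), 9 (without day 5 replicate 2), 5 of 12 (without day 14 replicate 1) and 5 of 12 (without day 14 replicate 2). Only Clec2d in monocyte-type cells was kept in all 11 alternatives. The causes were not tested, except that leaving out a library leaves fewer samples.

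With the replicate block, members called between days numbered 0 in cDC2, 0 in migratory dendritic cells, 1 in monocyte-type cells and 0 in microglia. The labels give the numbers without saying that they pair libraries. Over genes, the difference between replicates 1 and 2 on day 5 was correlated with the same difference on day 14. The coefficients were -0.356 over all cells, -0.261 in monocyte-type cells, -0.163 in microglia and between -0.0716 and 0.0676 in the other classes. DESeq2 called 0 members in cDC2, 0 in migratory dendritic cells, 1 in monocyte-type cells, 0 in microglia and 3 in neutrophils. With 1 more marker in the gate there was 1 in cDC2 and 0 in migratory dendritic cells. With 1 fewer there were 0 in migratory dendritic cells and 0 in microglia. With mixed cells kept there were 0 in migratory dendritic cells, 2 in monocyte-type cells and 1 in T cells. Without a filter on low counts there were 7 in monocyte-type cells, 2 in microglia and 1 in T cells.

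Leaving out each library in turn gave 0 to 1 members in cDC2, 0 to 0 in migratory dendritic cells, 0 to 1 in plasmacytoid dendritic cells, 4 to 7 in monocyte-type cells, 0 to 1 in microglia, 0 to 6 in neutrophils, 0 to 1 in T cells and 1 to 2 for the interaction, which gave 0 with the restricted microglia, a gate chosen after seeing the data. For a class against the mean of the others, leaving out a library gave 5 to 10 in cDC1 and 6 to 8 in cDC2. With the day 5 libraries alone the counts were 2 in cDC1, 3 in cDC2, 1 in migratory dendritic cells and 6 in neutrophils, and 6 for cDC1 against cDC2. With the day 14 libraries alone there were 6 in microglia. With mixed cells kept there were 4 in migratory dendritic cells and 6 in microglia, and without the filter 9 in plasmacytoid dendritic cells.

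Over all genes the calls between days ranged from 0 to 420 in neutrophils (297 reported), 265 to 751 in monocyte-type cells (406), 125 to 656 in microglia (251), 76 to 272 in cDC2 (204), 37 to 181 in cDC1 (60), 24 to 115 in migratory dendritic cells (63), 17 to 77 in plasmacytoid dendritic cells (22), 96 to 253 in T cells (200), 119 to 345 in NK cells (309) and 1 to 221 in B cells (75), and from 16 to 179 for the interaction (47). Class comparisons had their fewest calls with the day 5 libraries alone, except monocyte-type cells against microglia, where the fewest came without day 14 replicate 1. Cell numbers limit these fits, at 42 to 115 neutrophils and 22 to 52 plasmacytoid dendritic cells a library.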
